A study of Mus musculus with 25 samples.

Results

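The genes described here were 46 genes that a cell uses to copy its DNA and to divide, chosen by name: 25 that act in replication and at the entry into S phase, and 21 that act in mitosis. They are 46 of the 24411 gene symbols in the count tables, and all 46 were present. Their levels were followed over 25 samples in 9 conditions of mouse macrophages. BMDMs (bone marrow-derived macrophages of C57BL/6 mice, grown for 4 days with M-CSF at 25 ng/ml) made up 21 samples in 7 groups of 3. One group was the control, cultured for 4 h. The next 4 groups had received IFN-γ at 100 U/ml and LPS at 100 ng/ml, here called IFN-LPS, for 1, 4, 12 or 24 h. The study describes these cells as primed with IFN-γ, and whether and for how long IFN-γ came before LPS is not given in the sources used here. The last pair of BMDM groups had received IL-4 or IL-13, each at 10 ng/ml, for 12 h. The other 4 samples were RAW264.7 cells, an established macrophage line that the study traces to Balb/c mice infected with Abelson murine leukaemia virus. They were control cells cultured for 4 h (2 samples) or cells treated for 4 h with LPS alone at 100 ng/ml (2 samples). The study describes the BMDM groups as biological triplicates with RNA of their own, while the mice or cultures they came from are not named, so that p-values measure the spread between these samples only, which may be technical.

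Replication begins when Cdc6 and Cdt1 load the Mcm2 to Mcm7 helicase ring onto DNA. Cdc45 and the GINS complex then turn the ring into an active helicase, and polymerases follow with the sliding clamp Pcna. E2F factors switch on most of these genes late in G1, together with cyclin E and the enzymes that make nucleotides. The genes of mitosis follow in G2, driven by B-Myb and Foxm1. Their promoters often hold CCAAT boxes and cell cycle homology regions. M-CSF keeps cultured macrophages cycling, and both LPS and IFN-γ are known to stop them from dividing. RAW264.7 cells divide without M-CSF.

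The promoters of the members were searched for short words of E2F-type sites, CCAAT boxes and cell cycle homology regions. Promoters of 37 of the 46 members were found in RefSeq (GRCm38.p6), and the 250 bases before each start were searched on both strands. The words were TTTCCCGC, TTTCGCGC, TTTGCCGC and TTTGGCGC for E2F-type sites, CCAAT, and TTTGAA and TTCGAA for the cell cycle homology region. E2F-type words lay in 7 of the 37 members (18.9%) and in 2.16% of the 27025 gene symbols with a promoter, counting a symbol where any promoter held a word. Of the members with one, 6 were among the 21 replication genes searched and 1 was among the 16 mitosis genes. CCAAT lay in 27 members (73.0%) against 37.5% of symbols. It was in 14 of the 16 mitosis genes and 13 of the 21 replication genes. The cell cycle homology words lay in 13 members (35.1%) against 19.6% of symbols, in 8 of the 16 mitosis genes and 5 of the 21 replication genes. A word is a match of letters and not a bound site. Sites of another spelling or outside the 250 bases were not counted, so a member without a word may still carry one. Below are the 3 replication and the 3 mitosis members with the highest BMDM levels among those whose promoter held a word, with the words in capitals.
Pcna: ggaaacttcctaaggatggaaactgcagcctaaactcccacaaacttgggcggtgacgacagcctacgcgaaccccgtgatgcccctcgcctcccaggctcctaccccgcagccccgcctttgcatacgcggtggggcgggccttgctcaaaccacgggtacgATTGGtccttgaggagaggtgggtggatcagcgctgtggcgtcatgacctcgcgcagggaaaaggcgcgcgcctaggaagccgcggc
Mcm6: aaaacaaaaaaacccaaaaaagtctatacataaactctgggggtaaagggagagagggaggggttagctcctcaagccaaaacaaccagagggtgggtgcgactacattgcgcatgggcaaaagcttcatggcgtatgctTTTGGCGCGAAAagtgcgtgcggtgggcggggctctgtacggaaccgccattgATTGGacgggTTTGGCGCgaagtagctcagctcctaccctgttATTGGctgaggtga
Rrm1: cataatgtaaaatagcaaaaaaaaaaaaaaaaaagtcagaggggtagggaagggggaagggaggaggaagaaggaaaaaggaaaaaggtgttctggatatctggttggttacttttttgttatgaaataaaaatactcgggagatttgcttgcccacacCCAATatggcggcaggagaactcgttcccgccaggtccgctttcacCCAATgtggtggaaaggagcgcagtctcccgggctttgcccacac
Mki67: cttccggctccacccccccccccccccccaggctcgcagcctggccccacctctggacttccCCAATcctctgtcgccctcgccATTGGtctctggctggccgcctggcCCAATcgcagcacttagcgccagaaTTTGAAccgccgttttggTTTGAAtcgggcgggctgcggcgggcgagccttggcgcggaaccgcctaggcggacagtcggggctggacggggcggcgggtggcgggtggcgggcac
Cdk1: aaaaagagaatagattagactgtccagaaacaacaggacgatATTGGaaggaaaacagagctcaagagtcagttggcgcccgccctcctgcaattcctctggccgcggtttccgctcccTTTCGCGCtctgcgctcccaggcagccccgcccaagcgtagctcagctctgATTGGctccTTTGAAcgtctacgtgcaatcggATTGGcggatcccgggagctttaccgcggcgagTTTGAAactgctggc
Kif11: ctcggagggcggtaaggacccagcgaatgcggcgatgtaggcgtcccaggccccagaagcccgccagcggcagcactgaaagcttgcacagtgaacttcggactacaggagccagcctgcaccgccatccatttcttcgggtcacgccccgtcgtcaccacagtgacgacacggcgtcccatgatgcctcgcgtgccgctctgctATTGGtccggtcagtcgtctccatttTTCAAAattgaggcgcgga
These are, 5′ to 3′ on the strand of the gene, chr2:132253181-132253430 for Pcna (minus strand), chr1:128359706-128359955 for Mcm6 (minus), chr7:102441445-102441694 for Rrm1 (plus), chr7:135716380-135716629 for Mki67 (minus), chr10:69352913-69353162 for Cdk1 (minus) and chr19:37376132-37376381 for Kif11 (plus). In Mcm6, TTTGGCGC and its neighbour GCGCGAAA overlapped, 110 and 106 bases before the start, and TTTGGCGC came again at 47 bases. Cdk1 was the mitosis gene with an E2F-type word, at 131 bases, beside 3 CCAAT words on the strand opposite to the gene and 2 cell cycle homology words. Mki67 held 3 CCAAT and 2 cell cycle homology words. In Pcna, the word found was a CCAAT on the strand opposite to the gene.

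Sense counts summed to 2378639 to 3357300 per sample, and 1502618 to 2532496 remained without the ribosomal precursor Rn45s. The members took 0.0394% to 0.119% of the remaining counts in BMDMs and 0.464% to 0.809% in RAW264.7 cells. Of the reads counted to a gene, to no feature or as ambiguous, 62.7% to 69.1% matched no gene feature on their strand. Unmapped reads and reads mapped to several places were left out of that total. Levels are given in CPM, counts scaled to a common library total with TMM factors. Of 12 macrophage markers listed, 11 were present, and their summed level was 28221 to 41419 CPM in BMDMs and 9157 to 10827 CPM in RAW264.7, with Mertk at 0 in RAW264.7. Markers of other cells were low in BMDMs: 14 granulocyte and progenitor markers summed to 21.4 to 58.4 CPM with Ms4a3 at 0 in every group, 7 stromal markers to 55.2 to 143 CPM, 10 lymphoid markers to at most 4.40 CPM and 8 erythroid markers to at most 0.529 CPM. The antisense share of Rn45s was 0.0386% to 0.122% in the control and at 1, 4 and 12 h, and 0.00603% to 0.0214% after 24 h and with IL-4 and IL-13, a difference between libraries that cannot be told apart from the treatments. The TMM scaling used for all levels differed from that of control BMDMs by −0.23, −0.60, −0.38 and −0.26 on the log2 scale at 1, 4, 12 and 24 h, so that changes below are relative to the bulk of genes and would be lower by about that much on plain library totals. In RAW264.7 cells, LPS shifted it by −0.14.

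The first question was how IFN-LPS changed these genes over time. The summed level of the members, given with no test, was highest after 1 h and lowest after 24 h. It was 873 CPM ± 66.5 (SD, n = 3) in control BMDMs, 1179 ± 55.7 after 1 h, 791 ± 18.1 after 4 h, 503 ± 3.15 after 12 h and 436 ± 23.6 after 24 h. The sum depended on the scaling. As a share of plain counts without Rn45s, the members took on average 0.0970% in the control and 0.112% after 1 h. The share was 0.0579% after 4 h, 0.0429% after 12 h and 0.0406% after 24 h. On this scale the highest 4 h sample (0.0592%) lay below the lowest control sample (0.0880%). Pcna and Mki67 held much of the sum. Without them, the other 44 members summed to 615 ± 39.1 CPM in the control, 672 ± 44.7 after 1 h, 340 ± 26.6 after 4 h, 323 ± 2.10 after 12 h and 302 ± 5.03 after 24 h (SD, n = 3). The control and 1 h groups overlapped in this second sum, and the later groups lay below both.

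The plot of members by sample shows the same course gene by gene, with RAW264.7 cells far above BMDMs.

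**Figure D1:**
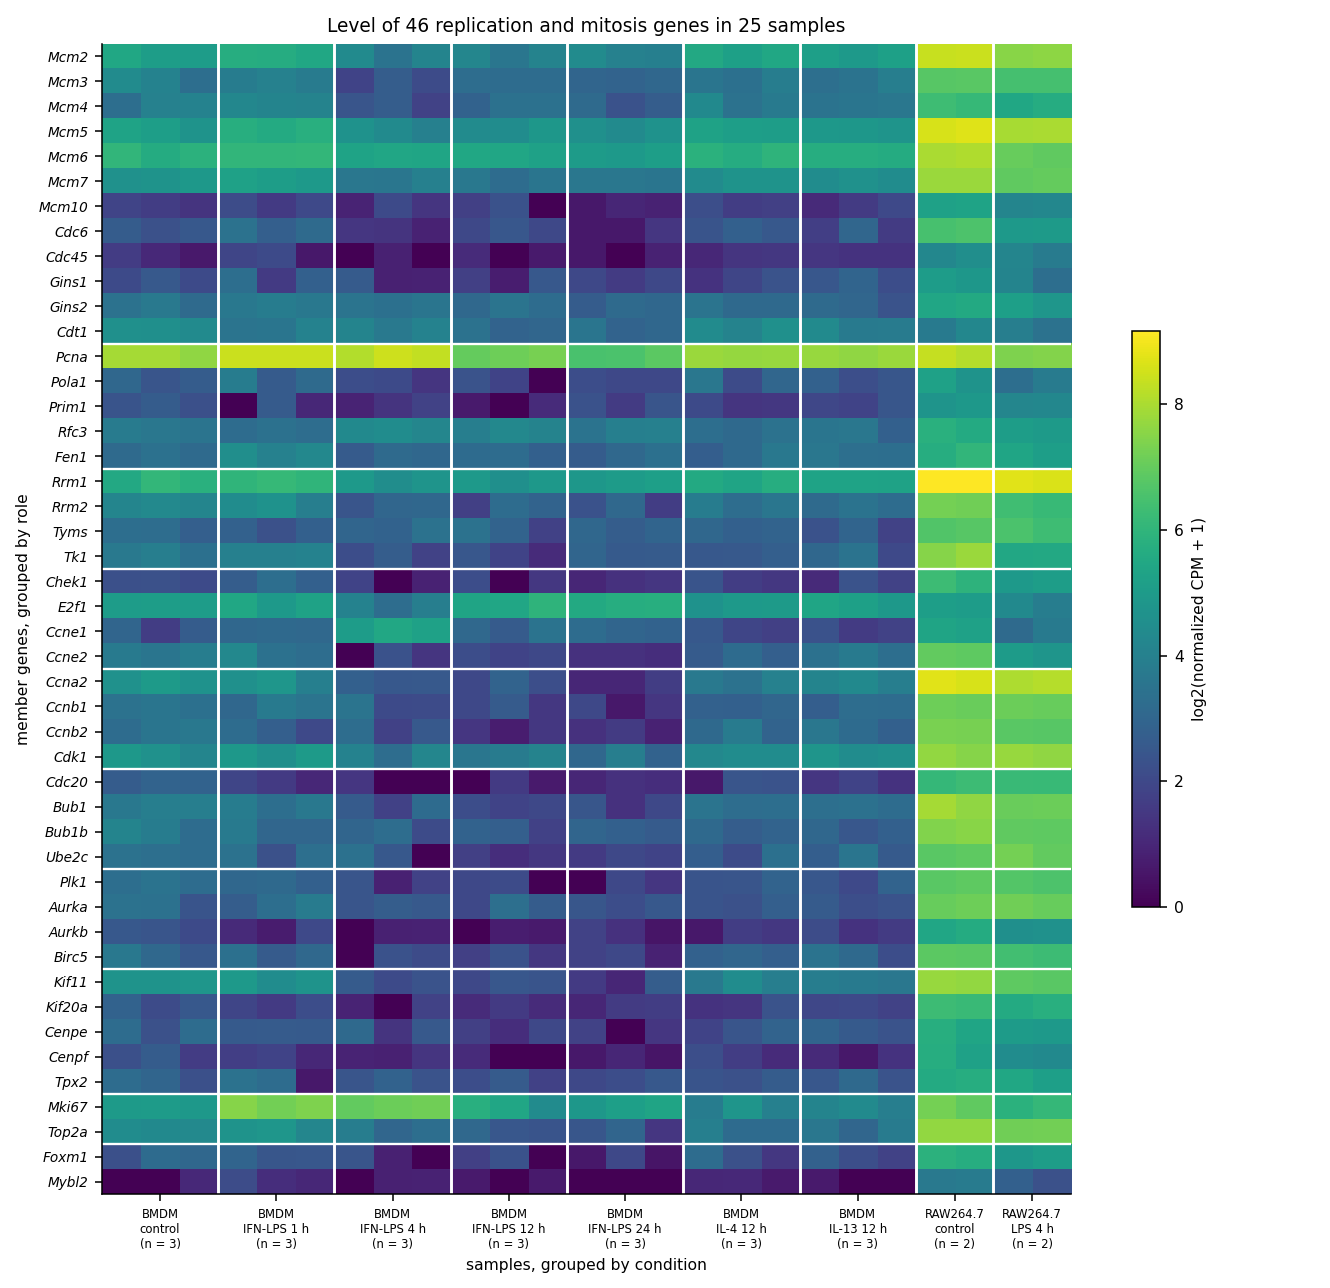
Heat map of the level (log2 of normalized CPM + 1, color scale) of the 46 members (rows, in the order of their roles) in the 25 samples (columns, grouped by condition with n below). Most rows darken from IFN-LPS 1 h to 4 h and stay dark to 24 h. Within the time course, Mki67 is brightest at 1 h and Ccne1 at 4 h. All but a few rows are brightest in RAW264.7.

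In the time course fit (edgeR quasi-likelihood test, called at a Benjamini-Hochberg FDR of at most 0.01), 9568 genes passed the filter on low counts, 37 of the members among them. At 1 h, 2 of the 37 members tested were lower than in the control and 4 higher, when 11.3% and 14.7% of all genes tested were lower and higher. At 4 h, 19 were lower and 3 higher, against 25.6% and 26% of all genes. At 12 h, 24 were lower and 0 higher, against 23.4% and 23.9%. At that time 1 member was higher at an unadjusted p under 0.05 and 0 were called higher by DESeq2. At 24 h, 27 were lower and 1 higher, against 21.3% and 23.9%. The median log2 fold change of the members tested was 0.11, −1.08, −1.38 and −1.22 at 1, 4, 12 and 24 h, and that of all genes was −0.03, −0.07, −0.03 and 0.02. The same 3 control samples served all 4 comparisons and had been cultured for 4 h, so that culture time and IFN-LPS cannot be told apart at the other times. In these bulk samples, fewer cycling cells and less RNA per cell cannot be told apart either.

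**Figure D2:**
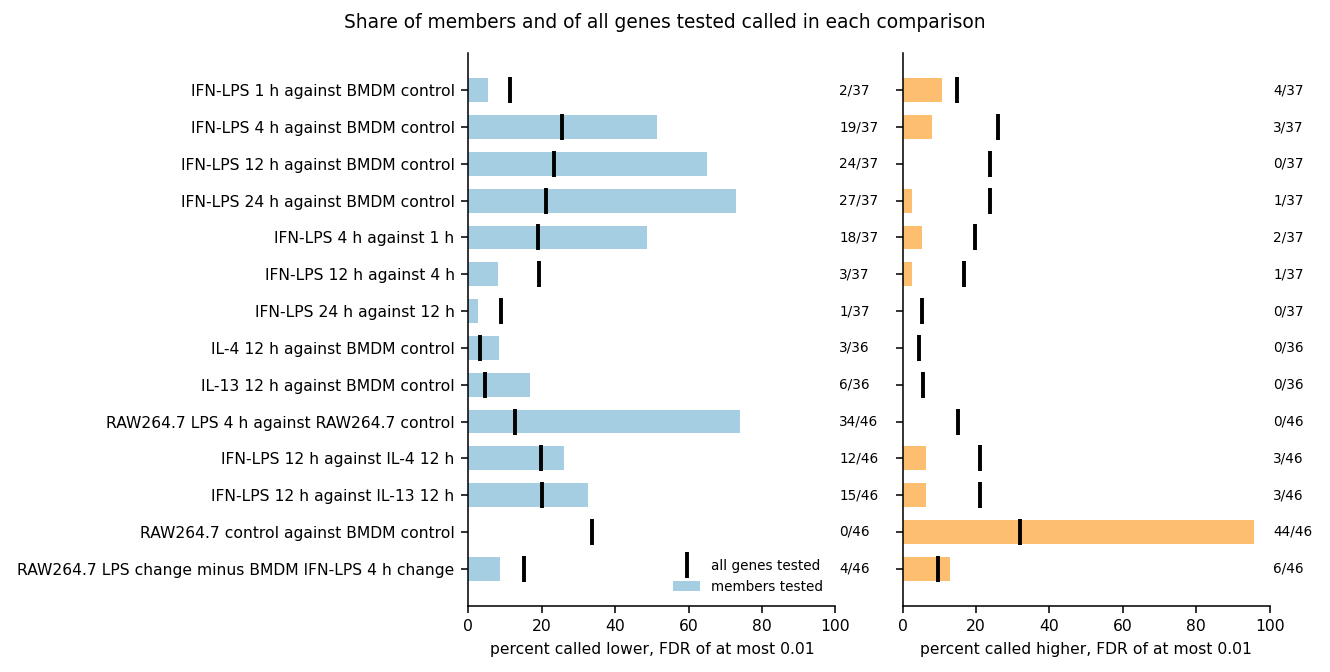
Percent of members tested (bars) and of all genes tested (black ticks) called lower (left) or higher (right) at an FDR of at most 0.01. Each comparison but that of IL-13 with IL-4 is shown, with the count of members called over those tested at the right of each panel. Among IFN-LPS times against the control, the bars of lower members pass the ticks from 4 h on, from 51.4% against 25.6% after 4 h to 73.0% against 21.3% after 24 h. They reach 73.9% against 12.8% in RAW264.7 with LPS. They stay under the ticks in the steps from 4 h to 12 h and from 12 h to 24 h, and in RAW264.7 against BMDM controls.

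Among the genes that license origins, all 6 genes of the Mcm2 to Mcm7 ring fell after 4 h. Mcm6, the ring gene with the highest level, had 64.0, 49.2 and 58.5 CPM in the control, 65.2, 64.8 and 65.7 after 1 h, 39.1, 41.4 and 41.1 after 4 h, 42.6, 42.3 and 36.5 after 12 h and 31.5, 29.0 and 33.8 after 24 h. Every sample from 4 h on lay below every control sample. Of all genes tested, 30.9% lay wholly below the control samples after 4 h, 28.4% after 12 h and 27.6% after 24 h. Its log2 fold change was −0.57 ± 0.15 (SE) after 4 h (edgeR, adjusted p = 0.0012, and 0.015 without control replicate 1) and −0.89 ± 0.14 after 24 h (adjusted p = 6.5e-07). Mcm3 fell furthest of the ring after 4 h, from 20.6, 15.7 and 8.96 CPM in the control to 2.61, 5.58 and 3.29, a log2 fold change of −2.02 ± 0.37 (adjusted p = 7.7e-06). It then stood at 8.37 to 8.75 CPM after 12 h and 6.49 to 7.26 after 24 h, all below the lowest control sample, which itself lay far under the other two. Mcm2, Mcm4, Mcm5 and Mcm7 changed by −1.30, −1.74, −0.82 and −1.12 after 4 h, and Mcm5 had first risen after 1 h, by 0.62 ± 0.16 (adjusted p = 0.0025).

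The factors that load the ring are Cdc6 and Cdt1. Cdt1 had 20 to 23.3 CPM in the control and was lower after 1 h already (10.6, 10.9 and 15.7 CPM, log2 fold change −0.85 ± 0.23, adjusted p = 0.0029). No member was called lower after 1 h with DESeq2, nor in the fits without control replicate 1 or 2 or without 1 h replicate 1 or 2. Cdt1 was not called after 4 h (−0.66 ± 0.25, adjusted p = 0.018) and was lower at 12 and 24 h, by −1.54 and −1.46. Cdc6 had 3.78 to 5.29 CPM in the control, 5.77 to 10.0 after 1 h, 0.822 to 1.74 after 4 h and 0.492 to 1.71 after 24 h, and against the control it was called after 24 h only (−2.24 ± 0.56, adjusted p = 0.00065), although the 4 h samples also lay below the control samples (adjusted p = 0.011). From 1 h to 4 h it fell by 2.52 ± 0.55 on the log2 scale (adjusted p = 0.00014). The GINS subunit Gins2 stayed between 5.42 and 13.5 CPM through the time course and passed the test at no time. Mcm10, Cdc45 and Gins1 had too few counts to be tested, with sums over the 3 control samples of 12, 7 and 21 counts.

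Pcna, the sliding clamp, took a course of its own. It had 243, 242 and 197 CPM in the control, 342, 343 and 342 after 1 h, 277, 353 and 317 after 4 h, 127, 141 and 153 after 12 h and 91.1, 92.9 and 115 after 24 h. It thus lay above every control sample at 1 and 4 h and below every one at 12 and 24 h. Its log2 fold changes were 0.55 ± 0.10, 0.40 ± 0.10, −0.77 ± 0.11 and −1.22 ± 0.11, all called (edgeR, adjusted p from 1.5e-05 after 1 h and 0.00085 after 4 h to 9.4e-14 after 24 h). The call after 4 h was lost without control replicate 3 (0.31, adjusted p = 0.017). The rise after 4 h was within the shift of the scaling: with no normalization factors it was −0.14 (adjusted p = 0.215). Per kilobase of annotated exons, Pcna had the highest level of the members in control BMDMs, 94.7 CPM per kb against 12.3 for Mcm6, the next.

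The other genes of the fork did not share one direction. Fen1, the flap nuclease that trims Okazaki fragments, rose after 1 h from 7.91 to 9.72 CPM in the control to 15.4 to 22.3, a log2 fold change of 1.09 ± 0.26 (adjusted p = 0.00071), and was back at 5.22 to 7.97 CPM after 4 h. Rfc3, a subunit of the complex that loads the clamp, had 10.5 to 13.2 CPM in the control, 8.36 to 9.62 after 1 h and 17.3 to 20.7 after 4 h. Its difference from the control after 4 h missed the threshold (0.62 ± 0.25, adjusted p = 0.028), and that from 1 h to 4 h passed it (1.07 ± 0.27, adjusted p = 0.00073). Pola1, the catalytic subunit of the polymerase that lays the primers, fell from 1 h to 4 h by 1.71 ± 0.51 on the log2 scale (adjusted p = 0.0047) and was not called against the control. Prim1, its primase partner, was not tested and had sums of 25, 10, 6, 3 and 22 counts in the control and at 1, 4, 12 and 24 h.

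Of the genes of nucleotide supply, 3 of 4 fell after 4 h and remained lower. Rrm1, the large subunit of ribonucleotide reductase, had 45.5, 66.4 and 55.9 CPM in the control, 62.6 to 69.9 after 1 h, 29.6, 21.5 and 25.5 after 4 h, 22.8 to 29.2 after 12 h and 27.6 to 35.5 after 24 h. The groups from 4 h on did not overlap the control, and the log2 fold change was −1.21 ± 0.18 after 4 h (adjusted p = 1.3e-07). Tk1, the thymidine kinase of S phase, fell from 12.2, 14.0 and 9.49 CPM to 3.48, 5.58 and 2.47 after 4 h (−1.68 ± 0.39, adjusted p = 0.00023) and 4.67, 2.60 and 1.2 after 12 h, then stood at 5.00 to 6.89 after 24 h, still below the control. Rrm2, the small subunit, changed by −1.53, −1.69 and −2.01 at 4, 12 and 24 h. Tyms, which makes thymidylate, had 5.80 to 8.99 CPM in the control and 6.37 to 9.87 after 4 h, overlapped it at all times and was never called.

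At the entry into S phase, the E cyclins went opposite ways. Ccne1 had 6.88, 2.16 and 5.27 CPM in the control, 7.25 to 7.70 after 1 h, 32.2, 44.6 and 37.0 after 4 h and 5.21 to 10.2 after 12 h. The 4 h samples stood apart from all others in the time course, with a log2 fold change of 2.89 ± 0.28 (edgeR, adjusted p = 9.4e-13). Ccne2 fell from 12.7, 10.8 and 13.7 CPM to 0, 3.98 and 1.64 after 4 h (−2.72 ± 0.49, adjusted p = 5.2e-06) and 1.28 to 1.5 after 24 h (−3.11 ± 0.44). E2f1, the activator of the S phase genes, dipped after 4 h and then exceeded its control level: 32.3, 32.9 and 32.2 CPM in the control, 15.7, 8.76 and 14.0 after 4 h, 40.3, 42.3 and 61.6 after 12 h and 46.3, 51.5 and 53.0 after 24 h. The 4 h samples lay below and the 12 and 24 h samples above all control samples. The log2 fold change was −1.42 ± 0.24 after 4 h (adjusted p = 1.3e-06), 0.49 ± 0.17 after 12 h (not called, adjusted p = 0.013) and 0.60 ± 0.16 after 24 h (adjusted p = 0.0017, and 0.012 with DESeq2). The E2f1 call after 24 h was also lost with no normalization factors. The checkpoint kinase Chek1 was not tested and had sums of 20, 36, 4, 9 and 9 counts in the control and at 1, 4, 12 and 24 h.

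The 12 members in the plot of levels over time include the leading gene of each kind of course.

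**Figure D3:**
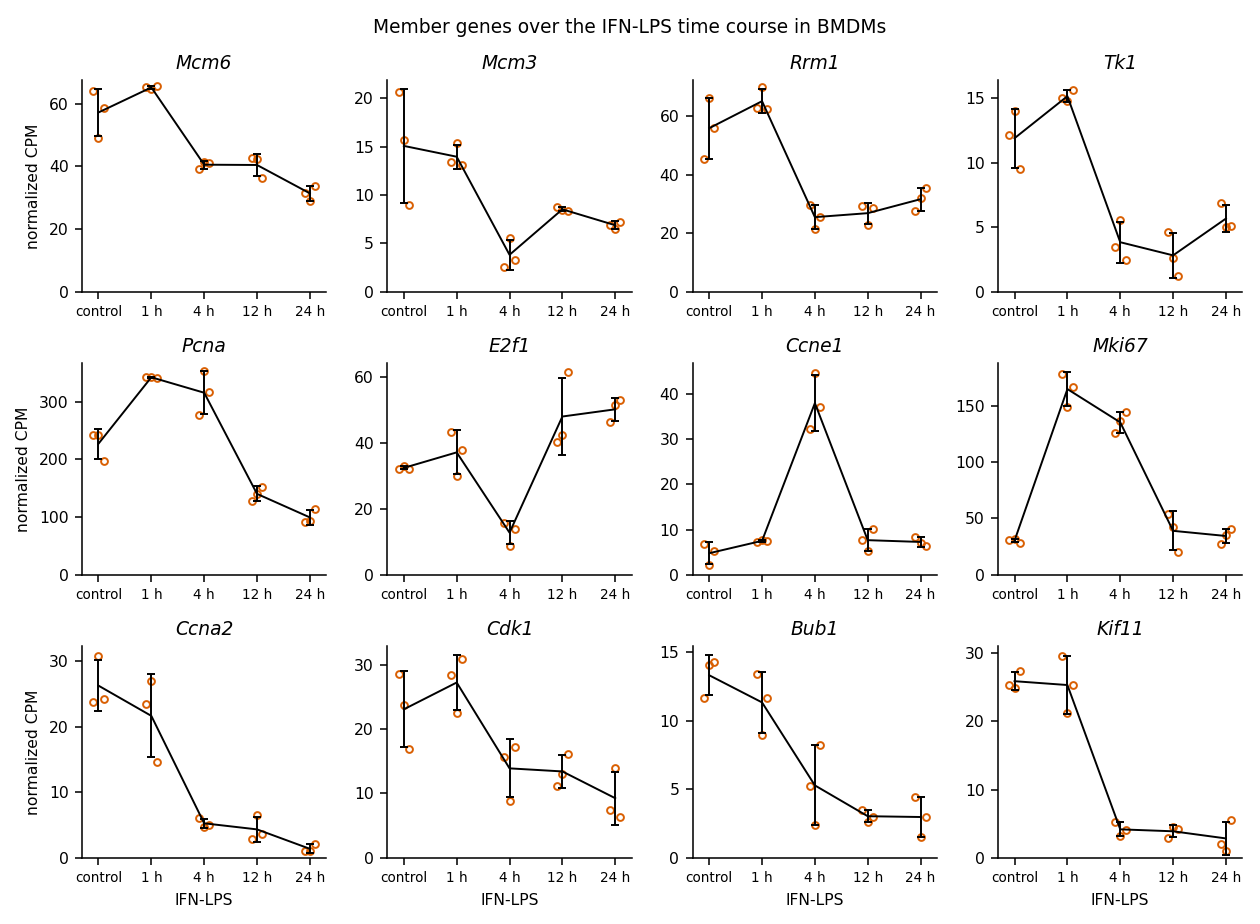
Normalized CPM of 12 members in control BMDMs and after 1, 4, 12 and 24 h of IFN-LPS. Circles are the 3 samples of a group, set side by side, the line joins the means and the bars are ± 1 SD. Mcm6, Mcm3, Rrm1, Tk1, Ccna2, Cdk1, Bub1 and Kif11 drop between 1 and 4 h, E2f1 dips after 4 h and recovers, Ccne1 peaks after 4 h, and Mki67 and Pcna are high at 1 and 4 h.

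The mitotic cyclins fell as well. Ccna2, cyclin A, had 23.8, 30.8 and 24.3 CPM in the control, 14.6 to 26.9 after 1 h, 6.09, 4.78 and 4.93 after 4 h, 2.92, 6.51 and 3.59 after 12 h and 0.985, 0.999 and 2.14 after 24 h. No sample from 4 h on reached the control, and the log2 fold change went from −2.38 ± 0.32 after 4 h (adjusted p = 7.5e-09) to −4.18 ± 0.35 after 24 h (adjusted p = 1.9e-14). Ccnb1 and Ccnb2, the B cyclins, were not called after 4 h and were after 12 h (−1.69 and −2.87) and 24 h (−2.54 and −2.84). Cdk1, the kinase that these cyclins activate, fell less: 28.6, 23.8 and 16.9 CPM in the control, 15.7, 8.76 and 17.3 after 4 h and 7.39, 14.0 and 6.41 after 24 h. At 4 h its highest sample lay above the lowest control sample, and the log2 fold change was −0.81 ± 0.27 (adjusted p = 0.0089). The call was lost without 4 h replicate 2 (−0.52, adjusted p = 0.125). At 24 h, where the groups did not overlap, it was −1.37 ± 0.26 (adjusted p = 1.5e-05).

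The genes of the spindle checkpoint and of the anaphase-promoting complex stood at low levels and fell. Bub1, the checkpoint kinase, had 11.6, 14.0 and 14.2 CPM in the control, 8.98 to 13.4 after 1 h, 5.22, 2.39 and 8.22 after 4 h, 2.60 to 3.5 after 12 h and 1.5 to 4.43 after 24 h. From 4 h on its samples lay below the control, by −1.41 ± 0.36 after 4 h (adjusted p = 0.00083; without 4 h replicate 2, −1.01 and adjusted p = 0.024) and −2.17 ± 0.35 after 24 h (adjusted p = 8.6e-07). Cdc20, which activates the complex, had 10, 12 and 12 counts in the control, 5, 3 and 2 after 1 h and 2, 0 and 0 after 4 h. At 4 h its normalized level was 10.9 times lower than in the control, with an exact 95% interval of 2.80 to 93.8 that covers counting error only. It was called lower at all 4 times, after 1 h with an adjusted p of 0.0081 that was 0.056 with DESeq2 and 0.071 without 1 h replicate 3. Bub1b was called at 12 and 24 h (−1.45 and −1.12), and so was the ubiquitin-conjugating enzyme Ube2c (−2.36 and −1.88).

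Among the mitotic kinases, Plk1 fell and Aurka was not called. Plk1, polo-like kinase 1, had 8.99, 10.3 and 8.44 CPM in the control, 6.06 to 7.70 after 1 h, 4.35, 0.797 and 2.47 after 4 h, 0 to 3.26 after 12 h and 0 to 3.0 after 24 h. All treated samples lay below all control samples, and the test passed after 4 h (−1.94 ± 0.53, adjusted p = 0.0017; without 4 h replicate 2, −1.47 and adjusted p = 0.026), 12 h (−2.22 ± 0.51) and 24 h (−2.54 ± 0.50). Aurka, the kinase of the spindle poles, had 10.1, 9.72 and 4.22 CPM in the control and 4.35, 5.58 and 4.93 after 4 h, with overlap at every time and a log2 fold change of −0.94 ± 0.39 after 24 h (adjusted p = 0.039). Aurkb, the kinase of the passenger complex, had sums of 23, 9, 2, 2 and 9 counts in the control and at 1, 4, 12 and 24 h and was not tested. Its partner Birc5, survivin, was lower at 4, 12 and 24 h (−1.73, −1.64 and −1.96).

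Kif11, the motor that pushes the spindle poles apart, fell furthest of the motor and kinetochore members tested. It had 25.4, 24.8 and 27.4 CPM in the control, 29.5, 21.2 and 25.3 after 1 h, 5.22, 3.19 and 4.11 after 4 h, 2.92 to 4.56 after 12 h and 0.999 to 5.55 after 24 h. The control and 1 h samples overlapped, and all later samples lay far below them. The log2 fold change was −0.07 ± 0.21 after 1 h (adjusted p = 0.84) and −2.70 ± 0.33 after 4 h (adjusted p = 1.3e-09). The kinetochore motor Cenpe was lower at 12 and 24 h (−1.67 and −2.27), while Tpx2, which builds spindle microtubules, was not called at any time. Kif20a and Cenpf were not tested, with sums of 27 and 21 counts in the control and 4 and 4 after 4 h. The Kif20a counts are uncertain, since the gene overlaps Cdc23 on the opposite strand. Its antisense counts were 24.4% of its sense and antisense counts together.

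Mki67, the gene of the proliferation marker Ki-67, was the 1 mitosis member called higher at 1 or 4 h. Its level was 31.2, 31.3 and 28.5 CPM in the control, 178, 149 and 167 after 1 h, 125, 136 and 144 after 4 h, 54.3, 42.3 and 20.3 after 12 h and 27.6, 35.5 and 40.2 after 24 h. The 1 and 4 h samples lay far above all control samples, and those at 12 and 24 h overlapped them. The log2 fold change was 2.40 ± 0.18 after 1 h (edgeR, adjusted p = 9.8e-12) and 2.08 ± 0.19 after 4 h (adjusted p = 2.5e-10). It did not pass the test after 12 h (0.29 ± 0.22) or 24 h (0.15 ± 0.22). Top2a, the topoisomerase that untangles chromosomes and the other member of this role, had 19.0 to 21.2 CPM in the control, 17.7 to 26.9 after 1 h and 7.17 to 13.9 after 4 h, and was lower at 4, 12 and 24 h (−1.07, −1.92 and −2.24).

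Of the factors that drive the G2 and mitosis genes, Foxm1 had 3.70, 8.10 and 7.38 CPM in the control, 4.35, 0.797 and 0 after 4 h and 0.492, 3.0 and 0.427 after 24 h. The 4 h samples overlapped the control and the 24 h samples did not, and Foxm1 was called after 24 h (−2.31 ± 0.62, adjusted p = 0.0019), a call lost without 24 h replicate 3 (−1.85, adjusted p = 0.019). Mybl2, B-Myb, had 0, 0 and 2 counts in the control, 6, 2 and 2 after 1 h and none after 24 h, where 3 counts over the group are the limit that a count of 0 allows. It was not tested.

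Between neighbouring time points, most calls were from 1 h to 4 h. From 1 h to 4 h, 18 of the 37 members were lower and 2 higher, against 19.1% and 19.8% of all genes tested. The 18 held 14 of the 20 replication members tested and 4 of the 17 mitosis members tested (Ccna2, Cdk1, Kif11 and Top2a), and the higher ones were Rfc3 and Ccne1. From 4 h to 12 h, 3 were lower (Pcna, Ccne1 and Mki67) and E2f1 was higher, by 1.91 ± 0.23 on the log2 scale, against 19.2% and 16.7% of all genes. From 12 h to 24 h, Pcna was lower (−0.45 ± 0.11, adjusted p = 0.0025) and 0 members were higher, against 8.9% and 5.31%. In that step 1 member was higher at an unadjusted p under 0.05 and 0 with DESeq2. The call of Pcna in this last step was lost in 4 of the 6 fits that left out 1 sample, those without 12 h replicate 2 or 3 or 24 h replicate 1 or 2. Steps that share a group are not independent of each other.

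Of other replication genes, from a list of 45, 30 were tested. After 4 h, 13 were lower and 2 higher, against 25.6% and 26% of all genes, and after 24 h 8 were lower and 2 higher, against 21.3% and 23.9%. Dnmt1, the maintenance DNA methyltransferase, fell from 84.7 ± 10.7 CPM to 10.5 ± 2.26 after 4 h (SD, n = 3), a log2 fold change of −3.08 ± 0.21 (adjusted p = 9.3e-18), and stood at 64.8 ± 9.61 after 24 h. Brca1, a gene of repair by recombination, had 20 counts over the control samples and 1 after 4 h, a ratio of 12.8 with an exact 95% interval of 2.05 to 532. Timeless, of the fork protection complex, rose after 4 h (1.79 ± 0.46, adjusted p = 0.00077) and 24 h (1.44 ± 0.44), and Pola2, the second subunit of the primer polymerase, rose after 24 h (1.18 ± 0.18).

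Of 57 other mitosis genes present, 34 were tested. After 4 h, 18 were lower and 4 higher, against 25.6% and 26% of all genes. After 24 h, 21 were lower and 2 higher, against 21.3% and 23.9%. Ncapg2, a condensin subunit, had 105 ± 7.12 CPM in the control, 33.6 ± 3.49 after 4 h and 14.8 ± 2.45 after 24 h (−2.85 ± 0.15, adjusted p = 6.3e-22). Cenpa, the histone of the centromere, changed by −2.81 ± 0.35 after 24 h. Cdc25b, a phosphatase that activates Cdk1, had 37 counts over the control samples and 0 after 4 h, at least 7.92-fold lower with 3 counts over the group as the floor. Higher after 4 h were Pttg1, securin (2.41 ± 0.20), Kif4 (1.80 ± 0.51), Hmgb2 (1.31 ± 0.16) and Mad2l1.

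The cyclins, inhibitors and E2F partners that act upstream had 13 of 36 tested lower and 10 higher after 4 h, against 25.6% and 26% of all genes, and 12 and 6 after 24 h, against 21.3% and 23.9%. Cdkn1a, the inhibitor p21, rose from 25.4 ± 0.535 CPM to 319 ± 38.2 after 1 h and 1207 ± 18.1 after 4 h (log2 fold change after 4 h 5.49 ± 0.13, adjusted p = 8.9e-37), and was at 96.6 ± 3.93 after 24 h. Ccnd2, cyclin D2, rose by 4.50 ± 0.33 and the pocket protein gene Rbl1, p107, by 2.54 ± 0.14 after 4 h. The inhibitors Cdkn1c and Cdkn2c fell, by 2.99 and 2.29 on the log2 scale after 4 h. E2f2, an activator like E2f1, had 57 counts over the control samples and 1 after 4 h, a ratio of 36.6 with an exact 95% interval of 6.31 to 1471.

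The next comparison set the IL-4 and IL-13 samples against the control for the same genes. The control had been cultured for 4 h and the cytokine samples for 12 h, so that culture time and cytokine cannot be told apart. These libraries also stood apart from the control in the antisense share of Rn45s given above, and its part was not tested. Few members were called, all of them lower. Of 36 members tested, 3 were lower with IL-4 and 0 higher, when 3.25% and 4.38% of all 9252 genes tested were lower and higher. With IL-13, 6 were lower and 0 higher, against 4.49% and 5.61%. Toward higher levels, 0 members had an unadjusted p under 0.05 with either cytokine and 0 were called by DESeq2. DESeq2 called 1 member lower with each. The median log2 fold change was −0.42 with each cytokine. The summed level was 725 ± 26.5 CPM with IL-4 and 694 ± 28.7 with IL-13 (SD, n = 3), below the lowest control sample of 797. Between the cytokines, 0 members were called lower or higher with IL-13 than with IL-4, when 0.0216% and 0.0865% of all genes were. At an unadjusted p under 0.05, 1 was lower and 1 higher, and DESeq2 called 0 in each direction.

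Mki67 was lower with both cytokines: 13.5, 26.4 and 14.8 CPM with IL-4 and 16.5, 20 and 14.1 with IL-13, against 28.5 to 31.3 in the control. Neither group overlapped the control, and the log2 fold changes were −0.75 ± 0.20 (edgeR, adjusted p = 0.0083) and −0.87 ± 0.21 (adjusted p = 0.0013). The IL-4 call was lost without IL-4 replicate 1 (−0.56, adjusted p = 0.113), the IL-13 call without IL-13 replicate 3 (−0.75, adjusted p = 0.013), and both were lost with DESeq2 (adjusted p = 0.058 and 0.017). Top2a was lower with both as well: IL-4 samples had 8.24 to 14.6 CPM (−0.93 ± 0.25) and IL-13 samples 7.17 to 13.1 CPM (−0.94 ± 0.25). Ccna2 had 12.0, 9.89 and 15.4 CPM with IL-4 (−1.10 ± 0.22, adjusted p = 0.00019) and 16.5, 19.5 and 14.1 with IL-13 (−0.68 ± 0.20, not called, adjusted p = 0.014), all below the control samples.

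With IL-13, the other members called were Kif11 (13.7, 12.3 and 11.5 CPM, −1.08 ± 0.22, adjusted p = 0.00016), Rrm2 (−1.0 ± 0.25), Bub1b (−1.12 ± 0.31) and Rrm1 (39.3, 38.9 and 37.7 CPM, −0.56 ± 0.15, adjusted p = 0.0049). The call of Rrm1 was lost without control replicate 2 (−0.42, adjusted p = 0.089). The ring gene Mcm6 had 50.5 to 60.9 CPM with IL-4, 49.2 to 51.7 with IL-13, and overlapped the control, as did Pcna at 208 to 217 and 197 to 219 CPM. The counts of calls changed when single samples were left out. With IL-4, 1 call was left without control replicate 1 or 2 or IL-4 replicate 3. With IL-13, 2 calls were left without control replicate 2 or IL-13 replicate 3, and 3 without IL-13 replicate 2. With DESeq2, Ccna2 was the 1 member called with IL-4 and Kif11 the 1 called with IL-13, so that the calls of Mki67, Top2a, Rrm1, Rrm2 and Bub1b were lost. Of the upstream genes, Myc (1.01 ± 0.24 and 1.25 ± 0.23) and Cdkn1a (0.91 ± 0.16 and 0.94 ± 0.16) were higher with IL-4 and IL-13, while Cdkn1c was lower with both (−0.84 ± 0.22 and −1.64 ± 0.24). Of 27 other replication genes tested, Dut was higher with IL-13 (1.25 ± 0.26). Of 32 other mitosis genes, 1 was lower with IL-4 (Ncapg2, −0.80 ± 0.12) and 2 with IL-13 (Racgap1 and Ncapg2). Over all genes tested, 3.25% were lower and 4.38% higher with IL-4, and 4.49% and 5.61% with IL-13.

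IFN-LPS and the cytokines can be set against each other after 12 h, where the treatment times match. In a fit of all samples with 10612 genes and all 46 members, 12 members were lower with IFN-LPS than with IL-4 and 3 higher, against 19.9% and 21.1% of all genes. Against IL-13, 15 were lower and 3 higher, against 20% and 21%. On plain library totals, 23 members were lower and 0 higher in each of these comparisons. Kif11, at 2.92 to 4.56 CPM with IFN-LPS, differed from IL-4 (12.0 to 20.9 CPM) by −2.03 ± 0.33 and from IL-13 (11.5 to 13.7 CPM) by −1.70 ± 0.34 on the log2 scale. Ccnb2, Ccna2, Bub1, Mcm2, Mcm7, Cdt1, Pcna and Rrm1 were lower in both comparisons too. Mki67 was higher with IFN-LPS, by 1.07 ± 0.26 and 1.19 ± 0.26, and so was Rfc3, by 0.83 ± 0.26 and 0.76 ± 0.25. The lowest IFN-LPS sample of Mki67 lay below the highest IL-4 sample. Against the control, Mki67 was not called after 12 h of IFN-LPS, while all IL-4 and IL-13 samples lay below the control. E2f1 was higher than with IL-4, by 0.73 ± 0.17, and its difference from IL-13 of 0.44 ± 0.17 was not called (adjusted p = 0.023). Ccne1 was higher than with IL-13, by 1.41 ± 0.41. Without 12 h replicate 3, 1 member was higher in each comparison. The IFN-LPS 12 h and the cytokine libraries also stood apart in the antisense share of Rn45s given above, and its part in these differences was not tested.

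RAW264.7 cells stood at a different level. Their control samples had a summed level of 6068 and 6180 CPM, against 797 to 919 in control BMDMs. In the same fit, 44 of the 46 members were higher in RAW264.7 than in BMDM controls and 0 lower, when 31.9% and 33.7% of all genes were. Toward lower levels, 1 member had an unadjusted p under 0.05, DESeq2 called 0, and 1 was called without RAW264.7 control replicate 2. The median log2 difference was 3.29, against −0.06 over all genes. The cell types differ in mouse strain, origin, medium and growth factor, and these cannot be told apart.

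High levels in RAW264.7 were found among replication and mitosis members alike. Rrm1 had 564 and 573 CPM against 45.5 to 66.4 in control BMDMs (log2 difference 3.32 ± 0.12), Mcm5 388 and 421 against 25.3 to 39.1 (3.60 ± 0.13), Ccna2 430 and 393 against 23.8 to 30.8 (3.94 ± 0.14) and Bub1 244 and 198 against 11.6 to 14.2 (4.03 ± 0.16). Mybl2, at 0 to 2 counts in control BMDMs, had 34 and 36. The members of smallest difference were Pcna, at 325 and 282 CPM against 197 to 243 (0.39 ± 0.10), E2f1, at 34.0 and 32.2 against 32.2 to 32.9 (0.01 ± 0.18, adjusted p = 0.98), and Cdt1, at 12.3 and 18.1 against 20 to 23.3 (−0.56 ± 0.23, adjusted p = 0.027). Neither E2f1 nor Cdt1 passed the test. Per kilobase of exons, Pcna led in both cell types (126 CPM per kb in RAW264.7), while Cdt1 went from rank 5 in BMDMs to rank 43 in RAW264.7, E2f1 from 3 to 37 and Ccnb2 from 6 to 2.

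LPS for 4 h lowered most members in RAW264.7 cells as well. The summed level fell to 3892 and 4005 CPM. Of the 46 members, 34 were lower and 0 higher, when 12.8% and 15.1% of all 9406 genes tested were. Toward higher levels, 1 member had an unadjusted p under 0.05, DESeq2 called 0, and 1 was called without LPS replicate 2. The median log2 fold change was −0.63, against 0 over all genes. The lower members were 20 of the 25 replication genes and 14 of the 21 mitosis genes. With 2 samples a group, the calls rest on the spread that edgeR shares between genes.

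Tk1 fell furthest, from 180 and 219 CPM to 43.7 and 45.5 (−2.12 ± 0.11, edgeR, adjusted p = 2.6e-75), followed by Ccne2, from 124 and 118 to 31.7 and 26.7 (−2.02 ± 0.14, adjusted p = 9.2e-48). Ccne1 fell as well, from 40.3 and 36.6 to 8.01 and 12.5 CPM (−1.84 ± 0.21), and Cdc6 by 1.53 and Pola1 by 1.43 on the log2 scale. Mcm6 went from 257 and 266 CPM to 130 and 120 (−1.02 ± 0.09) and Pcna from 325 and 282 to 166 and 176 (−0.79 ± 0.09). Mki67 fell from 150 and 120 CPM to 57.3 and 67.3 (−1.07 ± 0.11, adjusted p = 1.8e-19), E2f1 from 34.0 and 32.2 to 19.6 and 13.9 (−0.96 ± 0.19, a call lost without LPS replicate 2), Foxm1 by 0.79 and Kif11 by 0.83. In all of these, both LPS samples lay below both control samples. So they did in 40 of the 46 members and in 36.2% of all 9406 genes tested.

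Of the 12 members not called, 7 were mitosis genes: Cdk1 (202 and 179 CPM in the control, 215 and 198 with LPS), Ccnb1 (140 and 133, then 136 and 131), Cdc20 (68.4 and 77.1, then 73.3 and 70.5), Plk1 (111 and 117, then 103 and 96.2) and Aurka (130 and 142, then 144 and 129), with Tpx2 and Ube2c. The other 5 were Mcm3, Cdc45, Tyms, Prim1 and Cdt1. Their log2 fold changes ran from −0.56 ± 0.20 for Prim1 (adjusted p = 0.018) to 0.29 ± 0.10 for Ube2c (adjusted p = 0.014). Of the other replication genes, 36 of 43 tested were lower, led by Wdhd1 (−2.07 ± 0.20). Of 57 other mitosis genes, 27 were lower and 1, Ckap2l, was higher (0.85 ± 0.14). Upstream, 16 of 38 were lower, E2f8 and E2f7 among them, and 8 were higher. Over all genes tested, 12.8% were lower and 15.1% higher. Myc had 0 and 2 counts in the control and 41 and 53 with LPS, a ratio of 49.1 with an exact 95% interval of 13.2 to 411, and Cdkn1a rose by 1.13 ± 0.10.

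The responses after 4 h were set against each other in the fit of all samples, as the RAW264.7 change minus the BMDM change. The treatments differ, since RAW264.7 cells had received LPS without IFN-γ. Of the 46 members, the difference was called negative in 4 and positive in 6, against 15.3% and 9.75% of all genes. The 4 were Ccne1 (−4.83 ± 0.36), Mki67 (−3.24 ± 0.27), Rfc3 (−1.37 ± 0.31) and Pcna (−1.28 ± 0.15), each lower with LPS in RAW264.7 cells. In BMDMs after 4 h, Ccne1, Mki67 and Pcna were called higher and Rfc3 was not. The 6 were Cdc20 (3.31 ± 0.76), Kif11 (1.78 ± 0.37), Ccna2 (1.72 ± 0.33), Plk1 (1.69 ± 0.51), Mcm3 (1.64 ± 0.39) and Rrm1 (0.70 ± 0.20), all with the more negative change in BMDMs. With no normalization factors, the positive differences numbered 12.

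**Figure D4:**
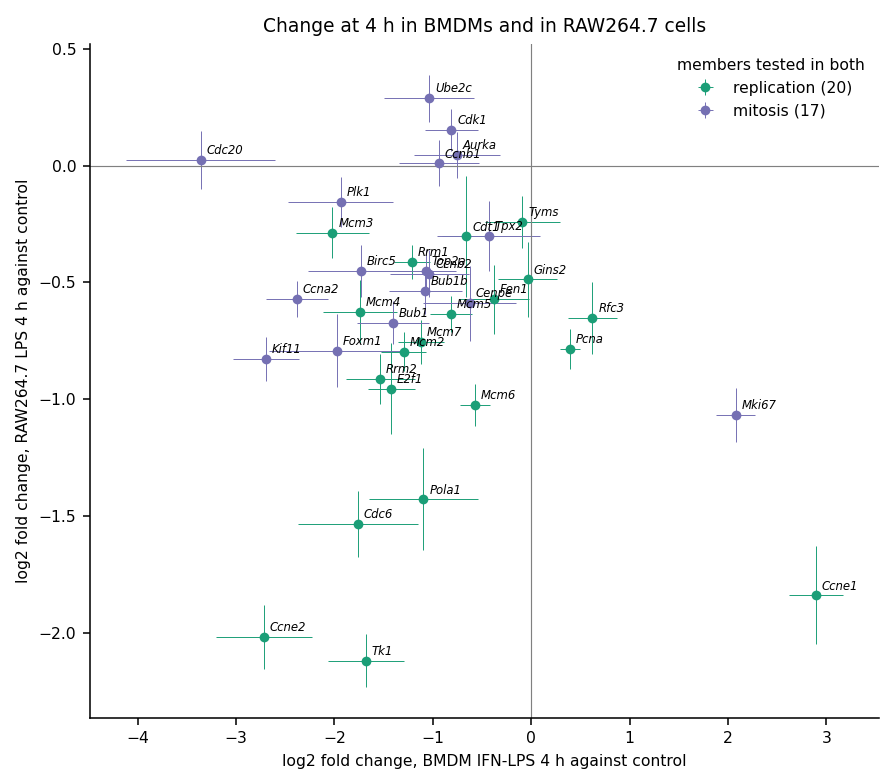
Log2 fold change after 4 h against the control of each cell type, in BMDMs with IFN-LPS (x axis) and in RAW264.7 cells with LPS (y axis), for the 37 members tested in both. Bars are ± 1 SE, replication members are green and mitosis members violet. Ccne1 and Mki67 lie at the right, at 2.89 and 2.08 on the x axis and −1.84 and −1.07 on the y axis, and Cdc20, Cdk1, Ccnb1, Aurka and Ube2c lie above 0 on the y axis.

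With a minimum fold change added to the FDR, as in the study's own cutoffs, fewer members were called. At a log2 fold change of at least 1.5, IFN-LPS gave 1 lower and 1 higher after 1 h (2.08% and 5.04% of all genes tested), 10 and 2 after 4 h (11.4% and 11.4%), 15 and 0 after 12 h (8.42% and 8.87%) and 15 and 0 after 24 h (6.93% and 7.93%). At 0.7, IL-4 gave 3 and 0 (1.64% and 2.22%) and IL-13 gave 5 and 0 (2.38% and 2.98%). At 2, LPS in RAW264.7 cells gave 2 and 0 (0.829% and 2.39%), the 2 being Tk1 and Ccne2.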

How the data were processed

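Gene expression was measured by RNA-seq of rRNA-depleted, directional paired-end libraries (101 cycles). Per the submitters' processing notes, the authors used CASAVA 1.8.2, Trimmomatic 0.33, STAR 2.5.1 and DESeq2 with the mm10 build. The annotation release is not given in the sources used here. The authors deposited counts per gene for each sample, unnormalized, and the column of counts on the strand of the gene was used here. Rn45s was left out before library sizes (20.1% to 39.8% of counts). Levels are TMM-scaled counts in CPM over 1502618 to 2532496 counts per sample. Levels per kilobase used exon bases of GENCODE M21 (GRCm38).

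Tests were edgeR 4.0.16 quasi-likelihood tests (limma 3.58.1, R 4.3.3) on genes kept by filterByExpr, in 4 fits: the time course (15 samples), the cytokines with control (9), RAW264.7 (4) and all 25 samples. A gene was called at an FDR of at most 0.01, adjusted by Benjamini-Hochberg over all genes tested. Standard errors were obtained by dividing each log2 fold change by √F. Intervals are exact, at the 95% level, and cover counting error only. The script was tested on simulated data before use. Replicates were numbered in the labels, and 2 of 30 same-number pairs of the time course and 0 of 9 of the cytokine samples had deviations correlated above 0.1, so the numbers were not taken as pairs. No pair of replicates was a duplicate.

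The members and lists were chosen with earlier results of these data known. Members were shown by sample where they had the highest BMDM level of their role or the largest called change at 4 h, and list genes named were up to 3 rises and 3 falls among the calls of each comparison. Mad2l1, and members beyond that rule, were named after their values were seen. Alternatives were DESeq2 1.42.0, RLE factors, no filter, unstranded counts, Rn45s kept, only the groups compared, a replicate block, leaving out each sample and, added after seeing the data, no normalization factors. Summed levels were also taken on plain library totals.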

Additional observations from a re-analysis of the deposited data

Results flagged for a closer look

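The change between neighbouring times of IFN-LPS differed from 0 in named counts of members (edgeR quasi-likelihood test): 18 were lower and 2 higher at 4 h than at 1 h, against 19.1% and 19.8% of all genes tested, 3 lower and 1 higher at 12 h than at 4 h, against 19.2% and 16.7%, and 1 lower at 24 h than at 12 h, against 8.9%. Of the 37 members tested, those lower in these steps were 48.6%, 8.11% and 2.7%, and the shares of the later steps lay below that of all genes.

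The response at 4 h differed between RAW264.7 cells and BMDMs by a test of the difference itself, given as the RAW264.7 log2 fold change minus that of BMDMs: −4.83 for Ccne1, −3.24 for Mki67, −1.37 for Rfc3, −1.28 for Pcna, 0.70 for Rrm1, 1.64 for Mcm3, 1.69 for Plk1, 1.72 for Ccna2, 1.78 for Kif11 and 3.31 for Cdc20. RAW264.7 cells had received LPS without IFN-γ and in another medium, which cannot be told apart from the cell type.

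Counts on the strand opposite to a member, used only within the unstranded alternative, were above those of every control sample in 3 cases. Tk1 had at least 7 such counts in each RAW264.7 LPS sample, Ccne2 at least 5 in each 1 h sample and Mki67 at least 7 in each 1 h sample. All 3 overlap annotated genes on the opposite strand: Gm20708 and Afmid for Tk1, Ints8 for Ccne2 and Gm45240 for Mki67. Which gene these counts came from was not tested.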

How the results depend on the processing

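With DESeq2, members called were 0 lower at 1 h, 0 higher at 24 h, 1 lower with IL-4 and 1 lower with IL-13. With no filter, 1 was lower at 1 h and 1 higher at 12 h. With unstranded counts 1 was lower at 1 h, and with Rn45s kept 1 was higher at 12 h. With only the groups compared in the fit, 0 were lower from 12 to 24 h, 5 lower with IL-4, and 9 lower and 1 higher at IFN-LPS 12 h against IL-13. With no normalization factors, an alternative chosen after seeing the data, 0 were higher at 24 h, 1 higher from 1 to 4 h, 2 higher from 4 to 12 h, 0 lower from 12 to 24 h, 23 lower and 0 higher at IFN-LPS 12 h against IL-4 and against IL-13, and 12 positive in the difference between cell types, and the Pcna change at 4 h turned to −0.14.

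When single samples were left out in turn, the fits gave 0 to 1 members lower at 1 h (0 without control replicate 1), 0 to 1 higher at 12 h (1 without 12 h replicate 1), 0 to 1 lower from 12 to 24 h (0 without 12 h replicate 2), 1 to 3 lower with IL-4, 2 to 5 lower with IL-13, 0 to 1 higher in RAW264.7 with LPS, 1 to 3 higher at IFN-LPS 12 h against IL-4 and 1 to 4 against IL-13, and 0 to 1 lower in RAW264.7 against BMDM controls. With the replicate number as a block, every one of the 28 counts of calls stayed within 1.5 times its value, for example 21 members lower at 4 h, 27 lower at 24 h and 33 lower in RAW264.7 with LPS. On plain library totals, the summed level of the members moved by no less than the SD of the group in all 9 groups. The cause of these shifts was not tested. Low counts in BMDMs limited what could be called there: 9 of the 46 members were not tested in the time course.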
